A study of Homo sapiens with 36 samples.

Results

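The contractile cytoskeleton and its regulator SRF were followed through 10 genes in 36 RNA-seq libraries. The genes were taken by name from a list that sets no threshold on their values but was drawn up with earlier results of these data known, and all 10 were found among the 60725 Ensembl genes of each library. They are ACTA2 (smooth muscle alpha-actin), TAGLN (transgelin), MYL9 (a myosin regulatory light chain), CNN1 and CNN2 (calponins), TPM1 and TPM2 (tropomyosins), CALD1 (caldesmon), VCL (vinculin) and SRF (serum response factor). MCF-10A ER-Src is a line of non-transformed human breast epithelial cells that carries the v-Src oncoprotein fused to the ligand-binding domain of the estrogen receptor. Ethanol vehicle (ETH) gave the groups labelled non-transformed, and tamoxifen (TAM) activated v-Src and gave the groups labelled transformed. The labels and the study's methods name AZD0530, a Src-family kinase inhibitor, together with tamoxifen in the treatment. The methods give a short and a long treatment time after siRNA transfection and do not say which was used for RNA-seq. Under each treatment the cells had received a control siRNA (Ctrli) or siRNA pools against YAP (YAPi), TAZ (TAZi), STAT3 (STAT3i) or JUNB (JUNBi), which made 10 groups that all carry the ER-Src fusion. MDA-MB-231 cells are a long-established line from a triple-negative breast tumour, without that fusion and without tamoxifen treatment in its labels. Its first set held Ctrli, YAPi, TAZi, YAPi_TAZi (both siRNAs) and TEADi (the TEAD family), and its second set held other Ctrli libraries, JUNBi and STAT3i. Every one of the 18 groups had 2 libraries. Each cell type is a single line, and nothing in the labels says that the 2 libraries of a group came from separate cultures, so that p-values measure only the spread between these samples.

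Actin and myosin filaments generate force inside cells. Tropomyosin, caldesmon, calponin and transgelin bind along the actin filament, the myosin light chain regulates the motor, and vinculin links filaments to adhesion sites. SRF is a DNA-binding protein that recognises the CArG box and, with MRTF cofactors that sense free actin or with ternary complex factors of the ELK family, drives many of these genes. YAP and TAZ are co-activators that respond to the same cytoskeletal tension and reach DNA through TEAD proteins, and JUNB (an AP-1 protein) and STAT3 are DNA-binding factors. In breast tissue the full set of these genes marks myoepithelial cells, which contract, and fibroblasts that have taken on a contractile form.

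Promoter windows, from 250 bases before to 50 bases after an annotated start site, were available from RefSeq for 8 of the 10 genes (14 windows), and not for TAGLN or MYL9. A CArG box (CC, then 6 bases that are A or T, then GG) stood in 2 of the 14 windows, 1 of SRF itself and 1 of CNN2, against 1.29% of all 35116 windows. The TEAD letters GGAATG, searched on both strands, stood in 4 of the 14 windows, of CALD1, VCL and ACTA2, and in 14% of all windows. The AP-1 letters TGANTCA stood in 1 of the 14 windows, of CALD1 (7.71% of all windows), and the STAT letters TTCNNNGAA in 1, of ACTA2 (7.66%). That CALD1 window (134711249 to 134711548) lies outside the GENCODE span of the gene, which starts at 134744252. The SRF and CNN2 stretches are shown because they hold the binding motif of the regulator itself, and the VCL stretch because it holds a TEAD motif in a gene that was called in only 1 comparison. All 3 are on the plus strand of GRCh38.p14, with the motif in capitals.
SRF, chr6:43171149-43171268, the 120 bases before the start site: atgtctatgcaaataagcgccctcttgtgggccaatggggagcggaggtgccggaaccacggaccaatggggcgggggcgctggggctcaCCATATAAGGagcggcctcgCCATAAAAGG
CNN2, chr19:1026488-1026607, the 120 bases before the start site: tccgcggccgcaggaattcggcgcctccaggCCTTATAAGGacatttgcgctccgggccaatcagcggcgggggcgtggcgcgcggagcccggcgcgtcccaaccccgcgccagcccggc
VCL, chr10:73997916-73998035, from 200 to 81 bases before the start site: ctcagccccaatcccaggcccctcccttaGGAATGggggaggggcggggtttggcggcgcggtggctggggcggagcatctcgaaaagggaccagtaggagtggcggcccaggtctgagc
The 2 boxes of SRF lie at positions -30 to -21 and -10 to -1, that of CNN2 at -89 to -80, and the TEAD letters of VCL at -171 to -166. A match of letters is a description and not a measured binding site.

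Libraries held 6416159 to 19153233 counts in ER-Src and 7290495 to 18076140 in MDA-MB-231 set 2. In set 1 the controls held 13456764 and 13534549 counts and the 8 knockdown libraries 1411300 to 2784553. The set 1 libraries also differed in kind, both between controls and knockdowns and between replicates. A group of 6 RNAs without a poly(A) tail took 8.71% to 11.8% of counts in the set 1 knockdowns and 9.43% to 11.7% in ER-Src, but 0.0028% and 0.0041% in the set 1 controls. Transcript length minus effective length was 75.0 bases in the set 1 controls, 48.0 in knockdown replicates 1 and 74.56 to 74.57 in knockdown replicates 2. The labels give no library type, and the term is used here only for such measured differences between libraries. Library type in this sense and knockdown cannot be told apart where a set 1 knockdown is set against its controls. The targeted RNA was lower in every knockdown library in all 18 checks, at 15.6% to 24.1% of control under TAM, 19.4% to 45.4% under ETH, 1.05% to 58.1% in set 1 and 18.9% to 24.3% in set 2. The least complete were TEAD1 in TEADi (58.1%) and JUNB in JUNBi under ETH (45.4%), and the latter was not called by DESeq2 (adjusted p 0.064). STAT3 in STAT3i of set 2 (18.9%) was given no adjusted p and so was not called either. Markers of other cells were also examined. Of 5 smooth muscle markers 0 reached a mean of 1 TPM (a level scaled to depth and corrected for transcript length) in any set, and their sum was at most 0.67 TPM. Basal epithelial markers were present in ER-Src (6 of 6 genes, 2072 to 4285 TPM in sum), and the other lists stood at 4 of 4 genes for general epithelium, 4 of 4 for mesenchymal cells, 2 of 5 for fibroblasts, 0 of 3 for endothelium and 1 of 2 for leukocytes. Between TAM and ETH controls the median gene moved by -0.34 on the log2 TPM scale and by -0.04 on normalized counts, and between STAT3i and Ctrli under TAM by 0.42 and 0.04, so changes are given on normalized counts. In bulk RNA, fewer cells of a type and less RNA per cell cannot be told apart.

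The most abundant member differed between the lines. In ER-Src cells TPM2 stood highest, at 82.8 to 134 TPM (median 104). CNN2 (21.3 to 34 TPM), TPM1 (13.2 to 56.9 TPM), CALD1 (15.9 to 38.3 TPM) and VCL (13.1 to 23.1 TPM) formed a middle group. TAGLN (1.43 to 18.8 TPM), MYL9 (0.92 to 7.77 TPM), SRF (1.7 to 4.43 TPM) and ACTA2 (1.12 to 3.16 TPM) were low. CNN1, the calponin of differentiated smooth muscle, was barely detected, with 0 to 3 counts per ER-Src library and 0 to 6 counts in any library, so that no fold is given for it. In MDA-MB-231 set 2 the order was different. MYL9 led at 271 to 449 TPM, SRF stood at 20.9 to 25.6 TPM and TAGLN at 22.1 to 30.9 TPM, while CALD1 was at 5.14 to 11.5 TPM and VCL at 4.88 to 15.6 TPM. All 6 set 2 libraries lay above all 20 ER-Src libraries for MYL9, TAGLN, SRF and CNN2, and below them for CALD1. The share of all genes that separated the lines in this way is not given here. The 6 RNAs without a poly(A) tail took 17.6% to 23.3% of TPM in ER-Src and 0.0146% to 0.0485% in set 2. Their part in these levels was not tested. The lines also differ in library type, in their share of RNAs without a poly(A) tail, and the 2 cannot be told apart, so no test between lines was made.

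**Figure D1:**
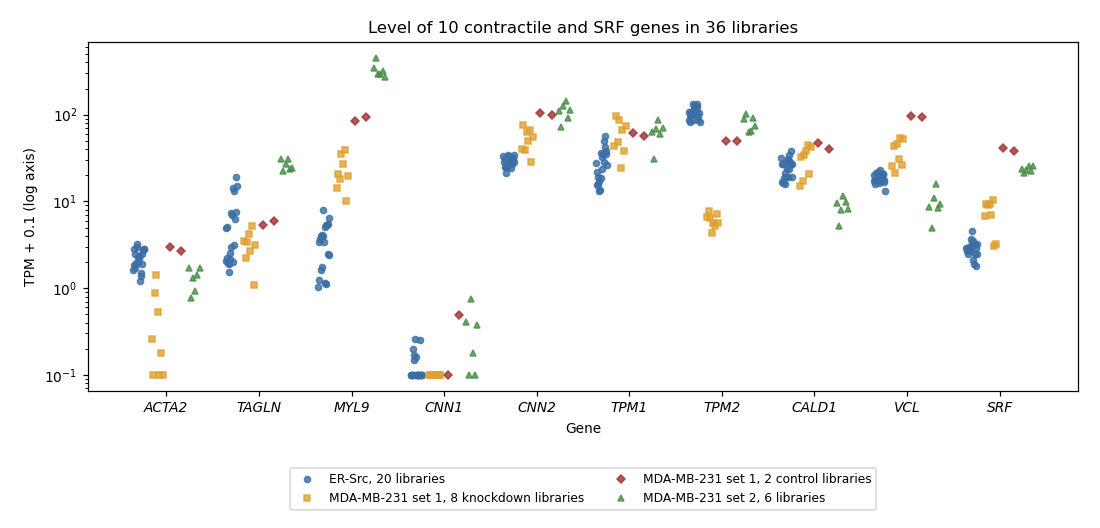
Level of each of the 10 genes (TPM plus 0.1, log axis) in every library, with 20 ER-Src libraries as circles, 8 MDA-MB-231 set 1 knockdown libraries as squares, 2 set 1 controls as diamonds and 6 set 2 libraries as triangles. MYL9 is lowest in ER-Src (0.92 to 7.77 TPM) and highest in set 2 (271 to 449 TPM), while CNN1 stays near 0 throughout.

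The first comparison asked which members changed when v-Src was activated in cells with the control siRNA. The actin-binding transgelin and the myosin light chain rose, and the tropomyosins, caldesmon, calponin 2, vinculin and SRF were not called. TAGLN (ENSG00000149591.16, chromosome 11, 117199370 to 117207464, plus strand) stood at 62.1 and 59.95 normalized counts under ETH and at 154 and 188 under TAM. Normalized counts are read estimates divided by a size factor for depth. The TAM libraries lay above both ETH libraries, a 2.82-fold difference (log2 fold change 1.495, SE 0.37, DESeq2 adjusted p 0.0011). MYL9 (ENSG00000101335.9, chromosome 20, 36541497 to 36551447, plus strand) stood at 27.5 and 40.4 normalized counts under ETH and at 109 and 133 under TAM. Again the groups did not overlap, and the difference was 3.60-fold (log2 fold change 1.85, SE 0.47, adjusted p 0.0015). In TPM these 2 genes were still low after TAM, at 4.89 and 4.99 TPM for TAGLN and 3.3 and 3.62 TPM for MYL9. Among all genes tested 6.11% were called in this comparison, against 2 of the 10 members. Both calls were lost when any 1 of the 4 libraries was left out, with adjusted p-values of 0.11 to 0.23 for TAGLN and 0.051 to 0.3 for MYL9, while the log2 fold changes stayed between 1.35 and 2.14.

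Against the TAM control, TAGLN was called in 3 of the 4 knockdowns, in both directions. It fell in YAPi and rose in STAT3i and JUNBi, as the plot of ER-Src counts shows. In YAPi TAM the libraries held 35.6 and 57.2 normalized counts, below the 154 and 188 of Ctrli TAM and close to the ETH controls. The fitted change was -1.86 on the log2 scale (SE 0.40, adjusted p 5.8e-05), and TAGLN was the only member called in that comparison, in which 10.9% of all tested genes were called. STAT3i TAM held 327 and 327 normalized counts, a 1.95-fold rise (log2 fold change 0.96, SE 0.26, adjusted p 0.0031) in a comparison that called 8.09% of all genes. JUNBi TAM held 423 and 471 normalized counts, a 2.67-fold rise (log2 fold change 1.42, SE 0.25, adjusted p 6.8e-07) where 6.71% of all genes were called. TAZi TAM, with 214 and 211 normalized counts, lay above both control libraries but was not called (log2 fold change 0.32, SE 0.28, adjusted p 0.68). These 4 comparisons share the Ctrli TAM libraries. The STAT3i call was lost when any 1 library was left out (adjusted p 0.033 to 0.3). The YAPi call was lost without either control library or without YAPi replicate 1 (0.036 to 0.087), and the JUNBi call without control replicate 1 or JUNBi replicate 2 (0.012 to 0.014).

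**Figure D2:**
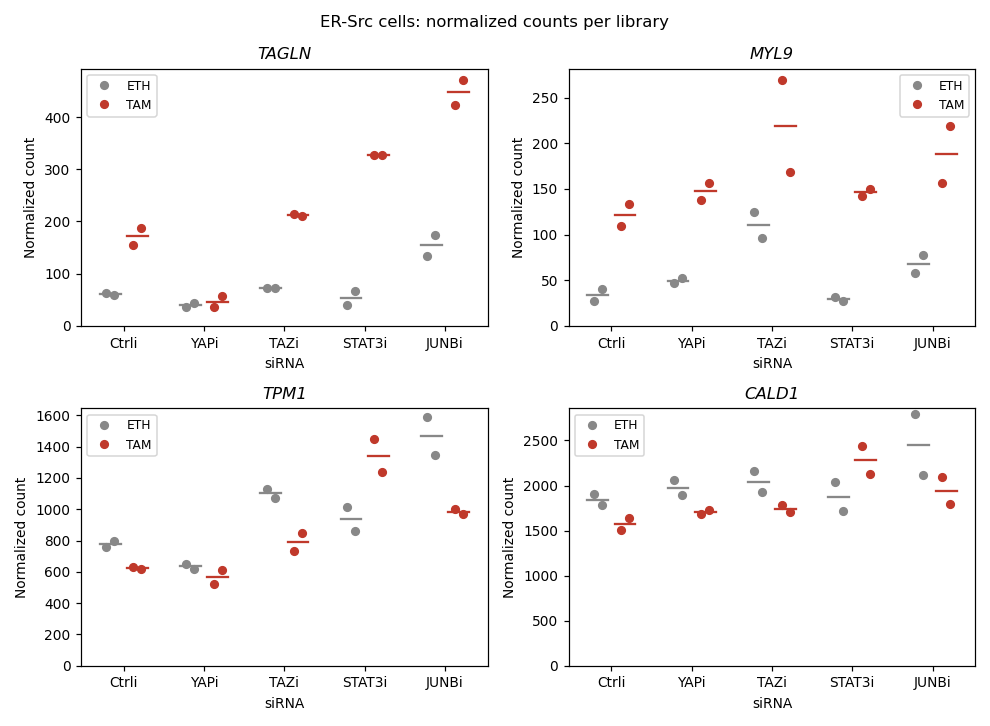
Normalized counts of TAGLN, MYL9, TPM1 and CALD1 in the 20 ER-Src libraries, by siRNA, with ETH libraries in grey and TAM libraries in red (points are libraries, bars are group means, n = 2). TAGLN under TAM runs from a mean of 46.4 in YAPi to 447 in JUNBi, and MYL9 is higher under TAM than under ETH for every siRNA.

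Direct comparisons between knockdowns, which share no control library, gave the widest differences of TAGLN. Between JUNBi TAM and YAPi TAM it differed 9.503-fold (log2 fold change 3.25, SE 0.28, adjusted p 7.7e-29). Between YAPi TAM and TAZi TAM, the knockdowns of the 2 related co-activators, it was 4.49-fold lower in YAPi (log2 fold change -2.17, SE 0.33, adjusted p 9.4e-09). The shares of all genes called were 11.1% and 6.32%. JUNBi and YAPi libraries differ in their effective lengths (transcript length minus effective length 49.0 against 49.48 bases), so that in the first of these comparisons the siRNA and that difference cannot be told apart, for TPM1 and VCL too. Both calls held under every alternative and without any single library. Ordered by mean, the ER-Src groups ran from JUNBi TAM (447 normalized counts) through STAT3i TAM (327), TAZi TAM (213), Ctrli TAM (171) and JUNBi ETH (154) to TAZi ETH (72.9), Ctrli ETH (61.0), STAT3i ETH (53.3), YAPi TAM (46.4) and YAPi ETH (40.5). Neighbours whose libraries overlapped were Ctrli TAM with JUNBi ETH and, at the low end, Ctrli ETH, STAT3i ETH, YAPi TAM and YAPi ETH in turn. The 2 YAPi TAM libraries thus lay on either side of the YAPi ETH libraries, at 36.6 and 44.3. RSEM shares reads that fit several genes, and its own uncertainty of the TAGLN count was at most 6.79% of the count in any library with 10 or more counts.

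MYL9 followed the treatment more than the siRNA. The 5 TAM groups were the 5 highest, from 121 normalized counts in Ctrli TAM to 219 in TAZi TAM, and the ETH groups ran from 29.0 in STAT3i to 110 in TAZi. Under ETH, TAZi was the exception. Its libraries held 124 and 96.5 normalized counts against 27.5 and 40.4 in Ctrli ETH, a 3.26-fold rise (log2 fold change 1.70, SE 0.47, adjusted p 0.0054). That made it the only member called in TAZi ETH, where 5.53% of all genes were called. Under TAM the TAZi libraries held 270 and 169 normalized counts, with a log2 fold change of 0.86 (SE 0.34) and an adjusted p of 0.13. Among the other siRNAs MYL9 was not called in either treatment, with log2 fold changes from -0.21 in STAT3i ETH to 0.99 in JUNBi ETH. The TAZi ETH call was lost when any 1 of its 4 libraries was left out (adjusted p 0.1 to 0.62).

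TPM1 (ENSG00000140416.19, chromosome 15, 63042620 to 63071915, plus strand), a tropomyosin that stabilises actin filaments, rose in the STAT3 and JUNB knockdowns. In Ctrli TAM it stood at 629 and 618 normalized counts and in STAT3i TAM at 1447 and 1237. The groups were far apart, and the 2.18-fold rise (log2 fold change 1.13, SE 0.16, adjusted p 3.1e-10) held under every alternative and without any single library. JUNBi TAM held 1001 and 968 normalized counts (log2 fold change 0.68, SE 0.16, adjusted p 0.00081), a call lost without any 1 library (0.044 to 0.18). Under ETH the TAZi libraries held 1131 and 1070 normalized counts, above the 761 and 797 of Ctrli, but were not called in the main test. DESeq2 called them with a mean count filter (log2 fold change 0.51, adjusted p 0.0077) and with 1 fit over all groups (0.50, adjusted p 0.0083). JUNBi ETH held 1590 and 1348 normalized counts against 761 and 797 in Ctrli (log2 fold change 0.90, SE 0.24, adjusted p 0.0077), and TPM1 was the only member called there, against 2.76% of all genes. With edgeR that p was 0.086, with effective length offsets 0.022, and it rose to 0.82 and 1 when either control library was left out. YAPi TAM, at 521 and 612 normalized counts, held the lowest mean of TPM1 among the 10 groups, and JUNBi TAM exceeded it by a log2 fold change of 0.80 (SE 0.16, adjusted p 2.6e-05), which was lost without YAPi replicate 1 or JUNBi replicate 1 (0.036 and 0.023).

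CALD1 (ENSG00000122786.19, chromosome 7, 134744252 to 134970729, plus strand), which restrains myosin on actin, was called in STAT3i TAM. Its libraries held 2442 and 2132 normalized counts against 1506 and 1639 in Ctrli TAM, a 1.48-fold rise (log2 fold change 0.56, SE 0.14, adjusted p 0.0009). The adjusted p was 0.011 with edgeR and was 0.032 to 0.22 when either control library or STAT3i replicate 1 was left out. With TAGLN and TPM1 this made 3 of 10 members called in STAT3i TAM, all higher, and 2 of 10 in JUNBi TAM, both higher, against 3.29% and 2.77% of all genes called higher. In TAZi TAM 0 members were called by DESeq2 and 0 by edgeR (3.53% of all genes called, and 2206 genes with an unadjusted p under 0.05). All STAT3i and JUNBi libraries differ from all Ctrli libraries in the deposited effective lengths, and that difference cannot be told apart from the knockdown. Transcript length minus effective length was 49.0 bases in the STAT3i and JUNBi libraries and 49.47 to 49.49 in those of Ctrli, YAPi and TAZi.

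Whether a knockdown acted differently under TAM and ETH was tested as an interaction. DESeq2 called 0 members in each of the 4 interactions, in which 0.496% (YAPi), 1.64% (TAZi), 1.57% (STAT3i) and 0.287% (JUNBi) of all genes were called, and edgeR also called 0. DESeq2 gave an adjusted p to only 5 of the 10 members in the TAZi interaction and to 9 in each of the others, and the rest could not be called. An unadjusted p under 0.05 was given to 835, 1408, 1153 and 903 of all genes. The nearest was TPM1 in STAT3i, whose change was larger under TAM by 0.83 on the log2 scale (SE 0.24, adjusted p 0.024). Its libraries under ETH were at 1016 and 862 normalized counts. With 1 fit over all ER-Src groups that interaction passed the threshold (adjusted p 0.0014), as it did with the replicate number as a term (0.0029) and without STAT3i ETH replicate 1 (0.0032), while edgeR put it at 0.056. For TAGLN the STAT3i interaction was 1.14 (95% interval 0.23 to 2.05, adjusted p 0.32) and the YAPi interaction -1.26 (95% interval -2.35 to -0.17, adjusted p 0.71). The JUNBi effect on TAGLN was close under both treatments, with log2 fold changes of 1.42 under TAM and 1.32 under ETH (SE 0.43, adjusted p 0.047), and the interaction was 0.07 (95% interval -0.76 to 0.90). Under ETH alone, YAPi and STAT3i called 0 members with DESeq2 and 0 with edgeR, where 11.4% and 0.201% of all genes were called and 4235 and 613 had an unadjusted p under 0.05.

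The remaining members moved little in ER-Src. TPM2 (ENSG00000198467.13, chromosome 9, minus strand) stayed between 2211 and 3701 normalized counts, and 8 of its 9 neighbouring pairs of groups overlapped. It was called once, lower in JUNBi TAM (2211 and 2654) than in STAT3i TAM (3470 and 3329), with a log2 fold change of -0.49 (SE 0.14, adjusted p 0.009) and 5.98% of all genes called. That call was lost with edgeR (0.056), with a mean count filter (0.013), with effective length offsets (0.12) and without any 1 library (0.011 to 0.4). CNN2 stayed between 827 and 1494 normalized counts with no call, and was lowest in STAT3i TAM (827 and 956, adjusted p 0.05 against 1175 and 1246 in Ctrli TAM). VCL (ENSG00000035403.16, chromosome 10, 73995193 to 74121363, plus strand) ranged from 1811 to 2886. Its highest means were those of YAPi TAM (2674 and 2886) and YAPi ETH (2525 and 2823), and its lowest that of JUNBi TAM (1925 and 1811). JUNBi TAM against YAPi TAM was its only call (log2 fold change -0.57, SE 0.13, adjusted p 0.00014, 11.1% of all genes), which edgeR put at 0.011 and which was lost without any 1 library (0.011 to 0.11).

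SRF itself (ENSG00000112658.7, chromosome 6, 43171269 to 43181506, plus strand) was not called in any ER-Src comparison. It stood at 299 and 352 normalized counts in Ctrli ETH and at 329 and 323 in Ctrli TAM, groups that overlap, with a log2 fold change of 0.02 (95% interval -0.43 to 0.46). The highest group was TAZi ETH (380 and 471) and the lowest STAT3i TAM (188 and 250, log2 fold change -0.56 against Ctrli TAM, SE 0.25, adjusted p 0.14). JUNBi ETH spread most, at 156 and 351. ACTA2 (ENSG00000107796.12, chromosome 10, minus strand), with 38 to 162 counts per ER-Src library, was not called either. Its 2 lowest groups were both STAT3i, at 39.0 and 43.1 normalized counts under ETH and 54.5 and 60.6 under TAM. Neighbouring groups overlapped in 7 of 9 pairs for both SRF and ACTA2, so their order carries little.

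Estimated transcript lengths of CALD1 and CNN2 differed between libraries. RSEM gives each gene a mean transcript length weighted by the isoforms it estimates, and in the 2 Ctrli ETH libraries that length was 78.3% and 74.2% of the gene's ER-Src mean for CALD1 and 83.2% and 76.6% for CNN2, against 99.9% and 103% and 89.5% and 99.2% in Ctrli TAM. The Ctrli ETH libraries were also low in their medians. Over 9294 genes their median length was 91.1% and 90.7% of the gene mean, and STAT3i ETH replicate 1 stood at 92.7%, while the other ER-Src libraries ran from 95.2% to 105%. Between TAM and ETH controls the CALD1 length ratio exceeded that of 92.5% of the 8599 genes whose length varied, and the CNN2 ratio that of 74.2%. The part of library-wide length in these values was not tested. The scale of the CALD1 result depends on it. On counts CALD1 differed by -0.22 between TAM and ETH in Ctrli (SE 0.12, adjusted p 0.4), and with effective length offsets by -0.55 (adjusted p 0.0014). Offsets also brought TAGLN in JUNBi ETH past the threshold, with a log2 fold change of 1.68 and an adjusted p of 0.0085.

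**Figure D3:**
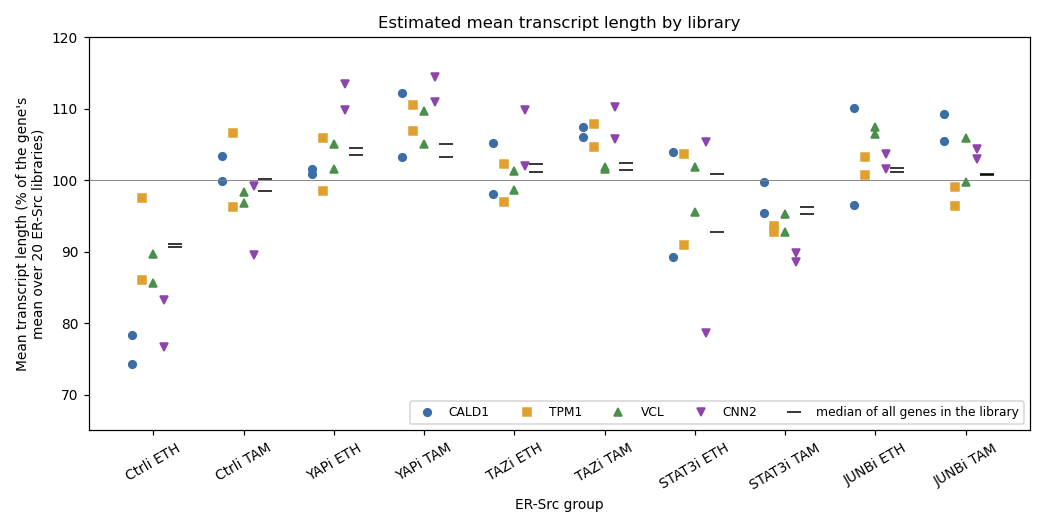
Mean transcript length of CALD1, TPM1, VCL and CNN2 in each ER-Src library, as a percentage of the gene's mean over 20 libraries, with the median of 9294 genes in the same library as a horizontal dash. The medians of both Ctrli ETH libraries lie low (91.1% and 90.7%) and CALD1 lies lower still (78.3% and 74.2%), while TPM1 in Ctrli ETH replicate 2 is at 97.5%.

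In MDA-MB-231 set 1, where controls and knockdowns differ in depth and in their share of RNAs without a poly(A) tail, the members split. TPM1 and CALD1 lay higher and TPM2 and SRF lower in the knockdown libraries. TPM2 was at 124 and 128 normalized counts in Ctrli and between 19.5 and 59.3 in the 8 knockdown libraries, with log2 fold changes of -1.52, -1.82, -2.02 and -1.43 in YAPi, TAZi, YAPi_TAZi and TEADi (adjusted p 7.2e-05, 0.0023, 3.6e-13 and 8e-05). CALD1 was at 287 and 265 normalized counts in Ctrli and from 391.6 to 619.5 in the knockdowns, with log2 fold changes of 0.62, 0.70, 1.11 and 0.83. TPM1 was at 150 and 145 in Ctrli, and rose by log2 fold changes of 1.34 in YAPi (324 and 430.0), 1.31 in TAZi (374 and 377) and 0.94 in TEADi (302 and 281), while YAPi_TAZi (173 and 286) was not called (0.62, adjusted p 0.018). None of the knockdown libraries overlapped the controls for these 3 genes. The 4 comparisons share the same 2 controls, and 24%, 32.3%, 35.5% and 28.1% of all genes were called in them, against 5, 4, 4 and 5 of the 10 members. On the TPM scale the median gene fell by 1.42 to 1.51 (log2) in the knockdowns, in which the RNAs without a poly(A) tail took 16.4% to 42.6% of all TPM, so TPM levels are not compared between these groups. VCL stood at 916 and 917 normalized counts in Ctrli and 756 to 996 in the knockdowns and was not called. Marker sums in TPM carry the same library-wide shift and are given as a description only. Basal epithelial markers summed to 146 and 163 TPM in the controls and 16.5 to 60.02 TPM in the knockdowns. KRT5 was at 0 in both controls and at 0 to 11.5 TPM in the knockdowns. The mesenchymal markers summed to 2780 and 2881 against 393 to 1031 TPM. General epithelial markers summed to 822 and 840 against 102 to 299 TPM, and leukocyte markers to 142.5 and 148.2 against 26.2 to 73.9 TPM. Endothelial sums were lower too, while fibroblast and smooth muscle sums overlapped. The part of these markers in the results was not tested.

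Against the other set 1 knockdowns, which were closer in depth and in their share of RNAs without a poly(A) tail, only SRF in TEADi was called. DESeq2 gave no adjusted p in any of these comparisons to ACTA2, TAGLN and CNN1, so they could not be called. In YAPi the same held for MYL9, SRF and TPM2. In these comparisons 0.597% (YAPi), 0.377% (TAZi), 1.11% (YAPi_TAZi) and 1.84% (TEADi) of all genes were called. TEADi held 89.8 and 52.9 normalized counts of SRF. The other knockdown libraries held 194 and 153 (YAPi), 264 and 143 (TAZi) and 173 and 170 (YAPi_TAZi), and the controls 298 and 279. Every TEADi library lay below every other library of the set. With the replicate number as a term the TEADi change against the other knockdowns was -1.39 (SE 0.27, adjusted p 5.6e-05), and against the controls it was -2.09 (SE 0.27, adjusted p 3.7e-13), which held under every alternative and without any single library. SRF was also called against the controls in YAPi (-0.75, adjusted p 0.0011) and YAPi_TAZi (-0.79, adjusted p 4.4e-08) but not in TAZi (-0.56, SE 0.33, adjusted p 0.18). Between YAPi_TAZi and TEADi, whose libraries have the same 2 kinds under the same replicate numbers and where 4.46% of all genes were called, SRF differed 2.44-fold (log2 fold change 1.29, SE 0.33, adjusted p 0.0032). That call was lost with edgeR (0.031), TMM factors (0.041), a mean count filter (0.012), effective length offsets (0.11), the replicate number as a term (0.021) and without any 1 library.

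MYL9 was also lowest in TEADi. Controls held 184 and 204 normalized counts, YAPi 126 and 101, TAZi 182 and 161, YAPi_TAZi 198 and 190 and TEADi 80.3 and 99.4. It was lower than the controls in YAPi (log2 fold change -0.80, SE 0.24, adjusted p 0.0038) and TEADi (-1.13, SE 0.25, adjusted p 4.4e-05), and the YAPi_TAZi libraries lay at the level of the controls (-0.04, SE 0.14, adjusted p 0.84). YAPi_TAZi exceeded TEADi by 1.09 (SE 0.29, adjusted p 0.0052). That call was lost with edgeR (0.016), TMM factors (0.053), a mean count filter (0.016) and effective length offsets (0.16). It was also lost with the replicate number as a term (0.035) and without any 1 library. Against the other knockdowns MYL9 in TEADi was at -0.81 (SE 0.33, adjusted p 0.16). CNN2 rose slightly in TAZi (log2 fold change 0.33, adjusted p 0.00089) and YAPi_TAZi (0.40, adjusted p 7.3e-05), from 344 and 337 normalized counts in Ctrli to 437 to 471, and both calls were lost without any 1 library. The TAZi call was also lost with TMM factors (0.18), effective length offsets (0.059), 1 fit over all groups (0.02) and the replicate number as a term (0.21). The YAPi_TAZi call was lost with effective length offsets (0.03) and with the replicate number as a term (0.017). ACTA2 was at 28 and 31 counts in the controls and at 0 to 5 counts in the shallower knockdown libraries. At those depths no fold is given, and its adjusted p was 0.09 or more. TAGLN was at 12.6 and 13.6 normalized counts in the controls and 7.65 to 24.7 in the knockdowns, highest in TAZi (22.1 and 24.7), and was not called. These values rest on 66 and 71 counts in the controls and 4 to 24 in the knockdowns.

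**Figure D4:**
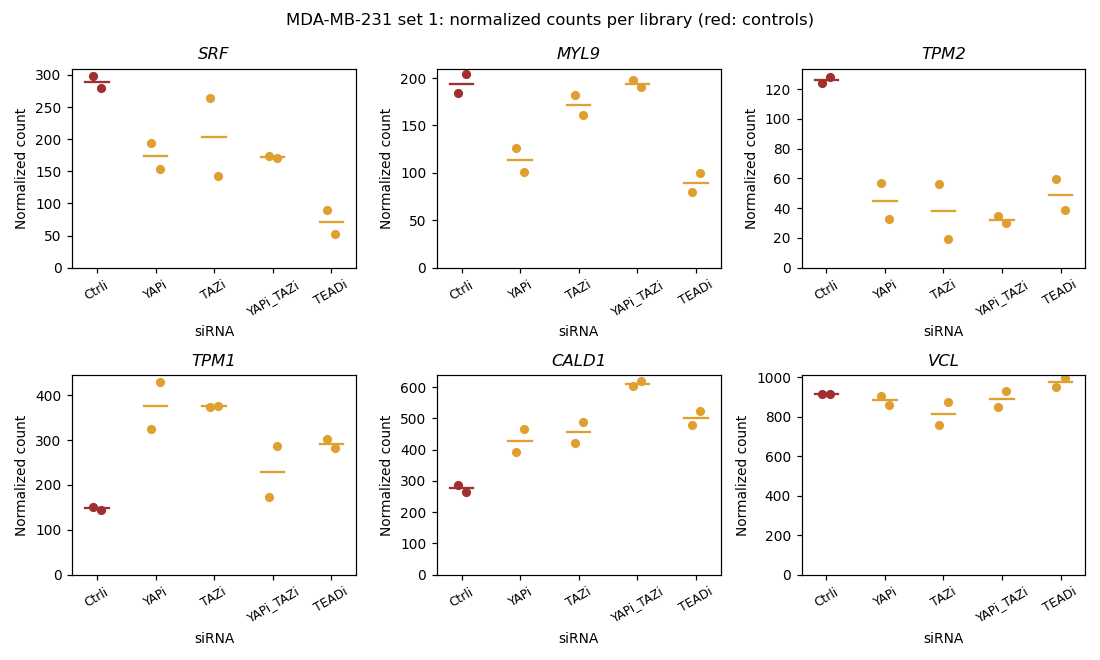
Normalized counts of SRF, MYL9, TPM2, TPM1, CALD1 and VCL in MDA-MB-231 set 1, with the 2 control libraries in red and the knockdown libraries in orange (points are libraries, bars are group means, n = 2). SRF is lowest in TEADi (89.8 and 52.9), TPM2 is lower in all 8 knockdown libraries, and VCL stays between 756 and 996.

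Leaving out a control library changed most of the set 1 calls. Without 1 or the other control, adjusted p-values rose above the threshold for MYL9 and CALD1 in YAPi, for SRF in YAPi and YAPi_TAZi, for CALD1 in TAZi, for MYL9 and TPM1 in TEADi and for TPM2 in YAPi, TAZi and TEADi, and without control replicate 2 alone for CALD1 in TEADi (0.029) and TPM2 in YAPi_TAZi (0.013). YAPi replicate 2 also decided MYL9 (0.064), CALD1 (0.088) and SRF (0.032) in YAPi. The calls of TPM1 in YAPi and TAZi and of CALD1 in YAPi_TAZi held without any single library. When the controls of set 2 were added as controls, TPM2 was still called in all 4 knockdowns and MYL9 and SRF in TEADi, while TPM1, CALD1 and the other calls of set 1 were lost.

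In MDA-MB-231 set 2 the abundant light chain MYL9 lay below both controls in all 4 knockdown libraries, and TPM2 did so in JUNBi. MYL9 stood at 3221 and 4895 normalized counts in Ctrli, 2689 and 2358 in JUNBi and 2941 and 2495 in STAT3i. No knockdown library reached a control. JUNBi differed from Ctrli by -0.68 on the log2 scale (SE 0.21, adjusted p 0.023) and STAT3i by -0.58 (SE 0.21), with 0.22 as its adjusted p, and neither passed the threshold. Without Ctrli replicate 3 they were -0.94 (adjusted p 0.00013) and -0.84 (9.4e-05). TPM2 stood at 1022 and 1322 normalized counts in Ctrli, 721 and 646 in JUNBi and 1038 and 836 in STAT3i. It was called in JUNBi (log2 fold change -0.77, SE 0.22, adjusted p 0.00998), just inside the threshold, where 3.99% of all genes were called. That call was lost with edgeR (0.13), TMM factors (0.014) and effective length offsets (0.019), and without Ctrli replicate 4 or either JUNBi library (0.15 to 1). In STAT3i 0 members were called by DESeq2 and 0 by edgeR (0.237% of all genes called, 691 with an unadjusted p under 0.05). DESeq2 gave an adjusted p to only 6 of the 10 members there, and TAGLN had none. TAGLN, called higher in JUNBi and STAT3i of ER-Src under TAM, stood here at 318 and 296 normalized counts in Ctrli, 283 and 258 in JUNBi and 233 and 242 in STAT3i. SRF lay between 809 and 973 in all 6 libraries.

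**Figure D5:**
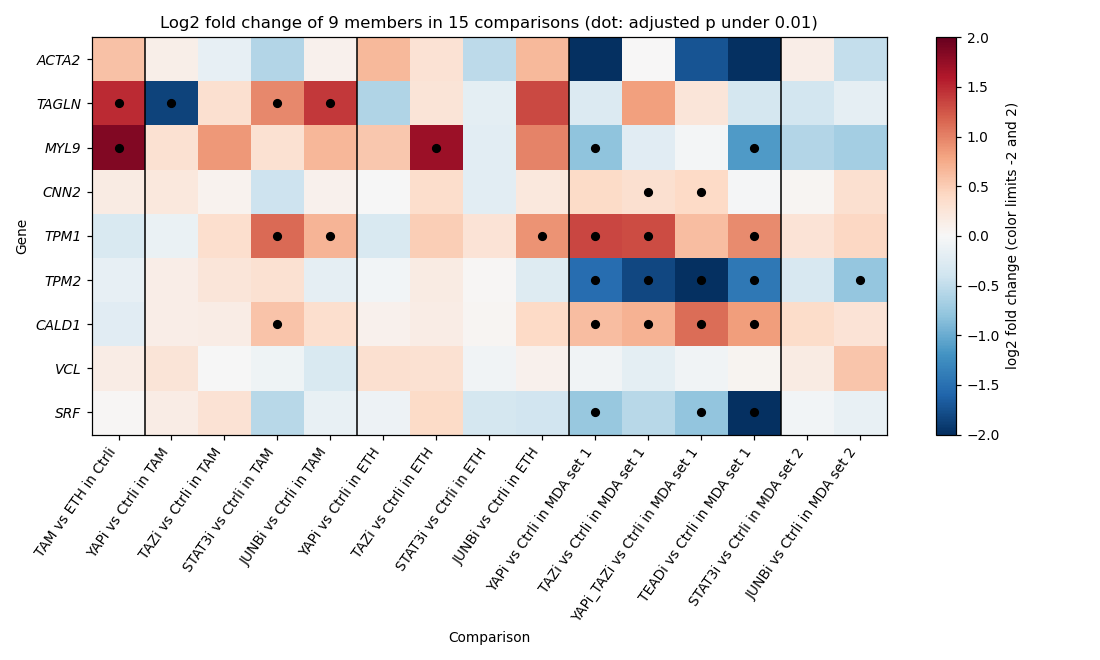
Log2 fold change of 9 genes (rows) in 15 comparisons (columns), red for higher and blue for lower in the first-named group, with a dot where the DESeq2 adjusted p was under 0.01 and colours limited to 2 in either direction. CNN1 is left out for its low counts, and the dark ACTA2 cells of set 1 rest on 0 to 5 counts per knockdown library.

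Other genes of the contractile and SRF pathway were counted in 5 lists of 47 genes. Between TAM and ETH in Ctrli, 11 of the 39 tested were called higher and 0 lower, against 4.56% and 1.56% of all genes. The largest change among those named was that of FOS, an immediate early gene and textbook SRF target (log2 fold change 2.55, SE 0.16, adjusted p 2.2e-55). Paxillin (PXN, 0.91, adjusted p 4.8e-05), the four-and-a-half-LIM protein FHL2 (0.73, 0.00084), tropomyosin 4 (TPM4, 0.53, 4.7e-06) and beta-actin (ACTB, 0.36, 0.0001, but 0.016 with edgeR) rose as well. The median change over the 39 was 0.17, against -0.01 over all genes. In the SRF cofactor and fast target list 4 of 9 tested genes rose, among them FOS, IER2 (0.85) and ELK3 (0.80), while SRF was not called.

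Under TAM, FOS fell in all 4 knockdowns, while TAGLN moved either way. The FOS log2 fold changes were -1.955 for YAPi, -0.74 for TAZi, -3.48 for STAT3i and -1.60 for JUNBi (adjusted p from 1.9e-68 to 2.2e-05). With edgeR the adjusted p of FOS in TAZi was 0.011. EGR1, another fast target, fell in YAPi (-2.13), STAT3i (-1.75) and JUNBi (-1.97). Calponin 3 (CNN3), a relative of the 2 calponin members, was lower in YAPi (-1.10, SE 0.17, adjusted p 1.3e-08), higher in STAT3i (0.72, SE 0.15, adjusted p 4.2e-05) and not called in JUNBi. Paxillin fell in STAT3i (-0.96, but adjusted p 0.0101 with edgeR) and JUNBi (-1.32), and smoothelin (SMTN) fell in STAT3i (-0.64) and JUNBi (-1.24). In all, 3 pathway genes were called higher and 6 lower of 38 in YAPi, 0 and 4 in TAZi, 6 and 8 in STAT3i and 1 and 9 in JUNBi, beside shares of all genes of 5.4% and 5.54%, 1.79% and 1.74%, 3.29% and 4.8%, and 2.77% and 3.95%. The 5 called higher in the myosin list in STAT3i included the light chains MYL12B (0.63) and MYL6 (0.60) and the kinase ROCK2 (0.56, but adjusted p 0.011 with edgeR). Of the interactions with TAM, only FOS in STAT3i was called (-2.82, SE 0.31, adjusted p 9e-17). Under ETH, CNN3 fell in YAPi (-1.31, adjusted p 3.8e-13), and MYLK, which phosphorylates myosin light chains, rose in TAZi (1.37, adjusted p 0.0018) and JUNBi (1.55, adjusted p 0.0038, but 0.057 with edgeR). In the fibroblast marker list, decorin (DCN) moved with the siRNA, at 137 to 259 TPM in the 8 YAPi and TAZi libraries and 29.98 to 70.7 TPM in the other 12, and the list summed to 139 to 262 and 30.8 to 74.0 TPM. Its part in the results was not tested.

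In set 1 more pathway genes were lower than higher against the controls, 18 and 8 in YAPi, 23 and 6 in TAZi, 26 and 7 in YAPi_TAZi and 17 and 4 in TEADi, of 39 to 41 tested. All genes were called lower in 11.9%, 16.6%, 18.2% and 14.4% and higher in 12.2%, 15.7%, 17.3% and 13.7%. On the log2 scale PXN was at -1.996 (YAPi), -2.22 (TAZi) and -2.01 (TEADi) against the controls. EGR1 changed by -5.65 to -3.34 in all 4, with wide SEs of 0.72 to 1.49 in these shallow knockdown libraries. ROCK2 lay higher by 1.66 to 2.31. Library type is confounded with knockdown here as well, and the pair cannot be told apart. In set 2, PXN (-0.96, adjusted p 1.6e-05), ZYX (-0.71, 0.0032) and PDLIM7 (-0.66, 0.0056) fell in JUNBi, none of which edgeR called (0.1 to 0.14).

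Across the 20 ER-Src libraries the members did not vary as 1 group. As a description, log2(TPM + 1) of TPM1 and CALD1 rose and fell together (Pearson r 0.854), TAGLN with MYL9 (0.672) and TPM2 with VCL (0.669), while ACTA2 and TPM2 ran against each other (-0.537). SRF correlated with no member above 0.333 (CNN2). Libraries share siRNA, treatment and depth, so these values are not independent, and library-wide shifts on the TPM scale enter them. Among 6872 genes the 3 whose levels were most like TAGLN were PROS1 (0.845), RND3 (0.825) and STAT2 (0.823), and the 3 most like SRF were PHRF1 (0.879), QTRT1 (0.852) and MLF2 (0.845).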

How the data were processed

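For RNA-seq the study's methods name a TruSeq Ribo Profile kit and an Illumina instrument, without separating the 36 libraries. The RNAs without a poly(A) tail took 0.0028% to 0.0041% of counts in the set 1 controls and 0.0036% to 0.0112% in set 2. In the other libraries they took 8.71% to 11.8%, so the kit used for each library cannot be told from these sources. Reads with up to 20 alignments were placed on hg38 (GENCODE 30) by STAR, and RSEM gave the deposited expected counts, TPM and lengths (versions not given in the sources used here). The deposited expected counts were rounded, and deposited TPM served for levels only. Symbols came from GENCODE 44, and 60725 Ensembl genes were kept. The main test was the DESeq2 1.42.0 Wald test with default settings, in a separate fit for each of 23 comparisons, with a Benjamini-Hochberg adjusted p under 0.01 over all genes tested. Normalized counts used size factors computed within ER-Src, set 1 and set 2. The alternatives were edgeR 4.0.16 quasi-likelihood, TMM factors, a mean count filter of 10, effective length offsets, 1 fit over all groups, a replicate block, other controls and leaving out each library. The main DESeq2 fit and the edgeR fit were tested on simulated data for some of the comparisons. The other alternatives were not tested in this way. The members and lists were chosen with earlier results of these data known. Named pathway genes were those called with the largest changes within each list, up to 3 per list. Replicates were compared, and no pair of libraries was identical.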

Additional observations from a re-analysis of the deposited data

Results flagged for a closer look

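Some members moved in opposite directions in the ER-Src and MDA-MB-231 lines under the same siRNA, with every library of a group on its side of the controls in each line. The differences were not tested, the lines differ in library type, and groups of 2 libraries could not be searched for single outlying samples. Within set 1 the controls and knockdowns differ in library type too, so its YAPi and TAZi signs cannot be told apart from that difference. The share of all genes that lay on opposite sides in this way is not given here. Members on the same side in both lines are not listed. In YAPi, log2 fold changes under TAM and in set 1 were 0.303 and -0.8006 for MYL9, -0.1282 and 1.335 for TPM1, 0.1287 and -1.519 for TPM2, 0.2545 and -0.07599 for VCL and 0.1426 and -0.7544 for SRF. Under ETH the YAPi values opposite to set 1 were 0.5399 for MYL9, -0.2978 for TPM1 and 0.3143 for VCL. In TAZi, values under TAM and in set 1 were 0.8612 and -0.2276 for MYL9, 0.2418 and -1.821 for TPM2 and 0.2814 and -0.556 for SRF. Under ETH the TAZi values were 1.704 for MYL9, 0.1597 for TPM2, 0.3791 for SRF and 0.3089 for VCL, and VCL in set 1 was at -0.1974. In STAT3i, values under TAM and in set 2 were 0.9634 and -0.3734 for TAGLN and 0.3 and -0.5786 for MYL9. In JUNBi they were 1.418 and -0.1763 for TAGLN, 0.6655 and -0.6814 for MYL9 and -0.3061 and 0.5543 for VCL, and under ETH 1.324 for TAGLN and 0.993 for MYL9. Most of these values did not pass the threshold on their own.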

How the results depend on the processing

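Of 36 called effects of members, 29 were still called with edgeR, 32 with TMM factors, 33 with a mean count filter, 28 with effective length offsets and 32 with 1 fit over all groups, and 60 of 144 when 1 library was left out. With 2 libraries a group, depth and replicate number limit every call, and the set 1 knockdowns are the shallowest. The causes of the changes below were not tested. Apart from the fits against the other set 1 knockdowns, the share of all genes called in each alternative fit is not given here. Whether the members lost calls more often than other genes therefore cannot be told.

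The labels do not say what a replicate number marks, and same-numbered deviations correlated between -0.207 and 0.83. With the replicate block, the number of members called was 0 in TAM vs ETH, 1 in STAT3i TAM, 0 in TAZi ETH, 1 in the STAT3i interaction, 2 in YAPi of set 1 and 0 in YAPi_TAZi vs TEADi, and 23 of 35 called effects were kept in all. The block put the adjusted p of TAM vs ETH at 0.045 for TAGLN and 0.038 for MYL9, that of TAZi ETH at 0.095 for MYL9 and that of STAT3i TAM at 0.056 for TAGLN and 0.017 for CALD1. In set 2 alone, no paired analysis was possible because its controls are numbered 3 and 4 and its knockdowns 1 and 2. With 1 fit over all groups 1 member was called in YAPi ETH, 2 in TAZi ETH, 2 in JUNBi ETH, 1 in the STAT3i interaction and 2 in JUNBi of set 2. The mean count filter gave 2 in TAZi ETH, 0 in JUNBi vs STAT3i and 0 in YAPi_TAZi vs TEADi. edgeR gave 0 in JUNBi ETH, JUNBi vs STAT3i, YAPi_TAZi vs TEADi and JUNBi of set 2, TMM factors 0 in YAPi_TAZi vs TEADi and JUNBi of set 2, and effective length offsets 0 in JUNBi vs STAT3i, YAPi_TAZi vs TEADi and JUNBi of set 2. With the controls of both sets 1 member was called in YAPi, TAZi and YAPi_TAZi, 3 in TEADi and 0 in JUNBi of set 2. There CNN2 turned to -0.26 in TAZi and -0.1784 in YAPi_TAZi. With the other set 1 knockdowns as reference, in a fit with replicate block, 0 were called in YAPi, TAZi and YAPi_TAZi and 1 in TEADi. Members without an adjusted p in those fits could not be called. Directions turned there for TPM2 (0.1726), CALD1 (-0.2909) and SRF (0.2327) in YAPi, CALD1 in TAZi (-0.1641), SRF in YAPi_TAZi (0.2476), and TPM1 (-0.1576) and TPM2 (0.3814) in TEADi. These references are themselves knockdowns, and for YAPi and YAPi_TAZi they include TEADi, with the lowest SRF, so these signs do not bear on the change from control.

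When 1 library was left out, the members called ranged over 0 to 0 in TAM vs ETH, 0 to 1 in YAPi TAM, 0 to 0 in TAZi TAM, 1 to 2 in STAT3i TAM and 0 to 1 in JUNBi TAM. The ranges were 0 to 0 in YAPi ETH, TAZi ETH and STAT3i ETH, 0 to 2 in JUNBi ETH, 0 to 1 in the STAT3i interaction and 0 to 0 in the other 3. They were 1 to 1 in YAPi vs TAZi, 0 to 0 in JUNBi vs STAT3i, 1 to 2 in JUNBi vs YAPi, 1 to 5 in YAPi and TEADi of set 1, 1 to 4 in TAZi and YAPi_TAZi, 0 to 0 in YAPi_TAZi vs TEADi, 0 to 2 in JUNBi of set 2 and 0 to 1 in STAT3i of set 2.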
